A study of Mus musculus with 9 samples.

Results

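The genes described are 10 that other work ties to muscle wasting and to the glucocorticoid response, namely Trim63, Fbxo32, Fkbp5, Foxo1, Foxo3, Klf15, Ddit4, Pdk4, Tsc22d3 and Zbtb16. They were picked by symbol from a count table of 56859 genes, with their values in these groups already known, so their own levels and fold changes are given as a description. All 10 passed the filter on low counts and were among the 18005 genes tested. RNA was sequenced from the shaved back skin of wild-type BALB/c mice of 6 to 8 weeks kept under specific pathogen free conditions, in 3 groups of 3 libraries. The first group had imiquimod (IMQ) for 7 days and a bergapten gel for 2 days, the second had IMQ for 7 days, and the third had vaseline for 7 days. IMQ is a Toll-like receptor 7 agonist whose cream gives mouse skin a psoriasis-like inflammation, and bergapten is 5-methoxypsoralen, a plant furanocoumarin. The labels describe no group that had IMQ with a gel lacking bergapten, no hour of collection, and no statement that the 3 libraries of a group came from separate animals. The p-values below therefore measure the spread between libraries, which may be partly technical. That spread was pooled per gene over all 3 groups. The SE and p-value of a comparison thus do not measure the spread of only the 2 groups compared.

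Glucocorticoids enter the cell and bind the glucocorticoid receptor, which moves to the nucleus and switches on target genes. In skeletal muscle, both this receptor and the FoxO transcription factors, which insulin and IGF-1 signalling hold in the cytoplasm, raise the transcription of the muscle ubiquitin ligases that mark contractile proteins for the proteasome. Several of the 10 genes are used as readouts of that programme in fasting, denervation, disuse and steroid treatment, and the glucocorticoid targets among them respond in skin as well.

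The windows around the transcription start of 3 of the genes are shown because they differ in the letters the receptor and FoxO factors are known to bind. The sequences run from 250 bases before to 50 bases after the start and come from RefSeq on GRCm38.p6. Of the 10 genes, 8 have a window in that table, as 10 windows of 300 bases, and Fbxo32 and Zbtb16 have none there. Trim63 is at chr4:134314870-134315169 on the plus strand, Tsc22d3 at chrX:140600473-140600772 on the minus strand (the farthest upstream of its 3 windows) and Fkbp5 at chr17:28486100-28486399 on the minus strand. Capitals mark matches to the palindromic glucocorticoid element (GNACA, any 3 bases, TGTNC), to its hexamer AGAACA and to the FoxO site GTAAACA, each searched on both strands.
Trim63: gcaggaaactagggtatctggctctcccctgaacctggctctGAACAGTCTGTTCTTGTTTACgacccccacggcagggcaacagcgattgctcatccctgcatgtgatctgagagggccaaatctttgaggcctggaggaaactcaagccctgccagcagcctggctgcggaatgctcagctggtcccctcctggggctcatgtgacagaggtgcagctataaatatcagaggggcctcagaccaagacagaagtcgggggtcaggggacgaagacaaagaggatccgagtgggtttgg
Tsc22d3: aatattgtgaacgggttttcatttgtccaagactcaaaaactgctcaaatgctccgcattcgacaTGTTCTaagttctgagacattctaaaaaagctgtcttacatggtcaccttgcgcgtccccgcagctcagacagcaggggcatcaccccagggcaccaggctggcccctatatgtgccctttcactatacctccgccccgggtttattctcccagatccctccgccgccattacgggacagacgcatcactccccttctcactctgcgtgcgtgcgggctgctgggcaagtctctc
Fkbp5: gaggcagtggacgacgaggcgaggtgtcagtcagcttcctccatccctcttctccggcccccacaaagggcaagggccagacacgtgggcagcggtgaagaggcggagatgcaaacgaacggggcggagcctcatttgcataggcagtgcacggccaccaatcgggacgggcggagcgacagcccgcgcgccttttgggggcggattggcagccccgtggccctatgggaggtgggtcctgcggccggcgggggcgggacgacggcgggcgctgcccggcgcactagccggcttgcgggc
In Trim63 the glucocorticoid element begins at position -208 from the start, the hexamer, read on the opposite strand and overlapping it, at -200, and the FoxO site, also on the opposite strand, at -194. The Tsc22d3 window shown holds the hexamer alone, at -185, and the other windows of Tsc22d3 hold none of the 3 motifs. The Fkbp5 window holds none of the 3 either. Among 32851 mouse windows of the same length, 0.475% hold the full element, 19.0% the hexamer and 3.65% the FoxO site. The windows of Foxo1, Foxo3, Klf15, Pdk4 and Ddit4 hold none of the 3, which says only that these letters are not in these windows. The palindrome CACGTG, the E-box that clock factors bind and that 7.15% of windows hold, occurs 3 times in Klf15 and once in Fkbp5.

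The counts below are given as CPM, counts scaled to the library total after TMM normalisation, the fold changes are log2 values from an edgeR quasi-likelihood fit of all 9 libraries, and "called" means a Benjamini-Hochberg adjusted p under 0.05 over all 18005 genes. Total counts ran from 15855439 to 19862905 a library. The bergapten replicate 2 library had 1.79% of its counts on the ribosomal RNA gene Rn18s, against 0.179% to 0.270% in the other 8 libraries. IMQ replicate 2 had the highest level in its group for all 10 genes, and IMQ replicate 3 the lowest for 7 of them. Results that rest on these libraries are given with and without them.

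Trim63 (ENSMUSG00000028834, chr4:134042431-134056940 on GRCm39, plus strand) encodes MuRF1, a ubiquitin ligase of the sarcomere. It had 11.8, 22.9 and 20.5 CPM in skin given IMQ with bergapten, 113, 438 and 161 CPM in IMQ skin and 44.6, 64.7 and 65.9 CPM in vaseline skin. The 3 groups did not overlap, with the bergapten libraries lowest and the IMQ libraries highest. Its log2 fold change was -3.68 (SE 0.55) for IMQ with bergapten over IMQ, a 12.8-fold lower level, which ranked 30 of the 18005 genes by size. It was 2.02 (SE 0.51) for IMQ over vaseline and -1.66 (SE 0.52) for IMQ with bergapten over vaseline. Without IMQ replicate 2 the first 2 of these values were -2.89 and 1.23.

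Fbxo32 (ENSMUSG00000022358, chr15:58039275-58078328, minus strand) encodes atrogin-1, the other classic muscle ubiquitin ligase. Its level was 44.3, 63.3 and 42.2 CPM in IMQ with bergapten, 146, 311 and 179.8 CPM in IMQ and 104, 96.4 and 116 CPM in vaseline. As for Trim63, the 3 groups lay in separate ranges in the same order. Fbxo32 had a log2 fold change of -2.09 (SE 0.28) for IMQ with bergapten over IMQ, 1.01 (SE 0.27) for IMQ over vaseline and -1.08 (SE 0.28) for IMQ with bergapten over vaseline. Over the 9 libraries the log2 CPM of Trim63 and Fbxo32 had a Pearson r of 0.980, given as a description because the libraries share the 3 groups.

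**Figure D1:**
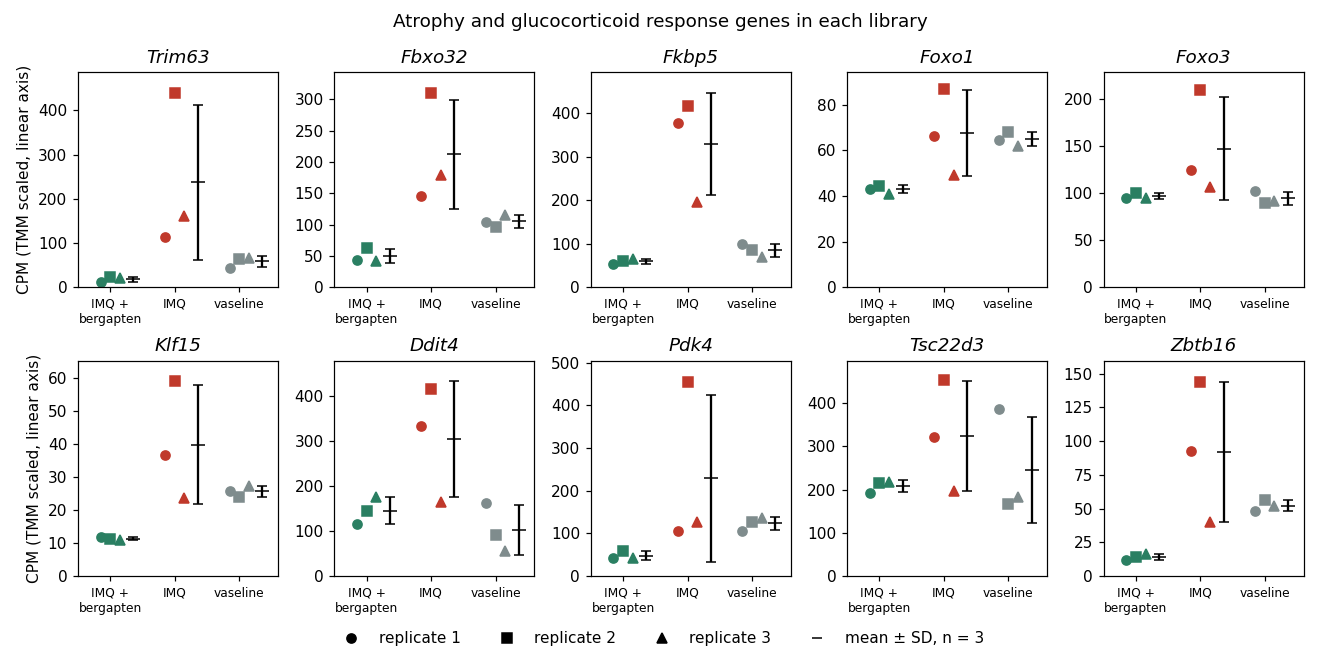
CPM (TMM scaled, linear axes from 0) of each of the 10 genes in the 9 libraries, with IMQ plus bergapten at the left, IMQ in the middle and vaseline at the right; marker shapes give the replicate and the bars the mean ± SD (n = 3). The square of IMQ replicate 2 is the highest IMQ library in all 10 panels, and the bergapten libraries lie below the IMQ libraries without overlap in 8 panels.

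Among the glucocorticoid targets, Fkbp5 (ENSMUSG00000024222, chr17:28618068-28736501, minus strand) encodes FKBP51, a co-chaperone that lowers the receptor's affinity for its hormone and is itself induced by it. It had 53.2, 60.9 and 64.9 CPM in IMQ with bergapten, 376, 416 and 196 CPM in IMQ and 100.1, 84.9 and 69.2 CPM in vaseline. The 3 IMQ libraries were far above all others, and the bergapten libraries ended just below the lowest vaseline library. Fkbp5 had a log2 fold change of -2.46 (SE 0.27) for IMQ with bergapten over IMQ, 1.96 (SE 0.27) for IMQ over vaseline and -0.51 (SE 0.26) for IMQ with bergapten over vaseline. The first 2 were called in all 14 alternative fits, and the third was not called in the main fit.

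Zbtb16 (ENSMUSG00000066687, chr9:48565597-48747522, minus strand) encodes PLZF, a transcription factor induced by glucocorticoids in many cell types and also a marker of innate-like lymphocytes. It had 11.5, 14.3 and 16.1 CPM in IMQ with bergapten, 92.7, 144 and 39.9 CPM in IMQ and 48.0, 56.1 and 51.8 CPM in vaseline. The bergapten libraries were below all others, while the IMQ libraries lay on both sides of the vaseline range. Zbtb16 had a log2 fold change of -2.72 (SE 0.42) for IMQ with bergapten over IMQ and -1.89 (SE 0.41) for IMQ with bergapten over vaseline, against 0.83 (SE 0.39) for IMQ over vaseline. The summed level of 12 T cell and innate lymphoid markers was 271 to 298 CPM in IMQ with bergapten, 192 to 271 CPM in IMQ and 239 to 262 CPM in vaseline. A large part of that sum was Thy1, which is also in the fibroblast list. Thy1 had 129, 116 and 142 CPM in IMQ with bergapten, 62.4, 48.8 and 86.8 CPM in IMQ and 116, 144 and 108 CPM in vaseline. The part of lymphocytes in the level of Zbtb16 was not tested.

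Klf15 (ENSMUSG00000030087, chr6:90439558-90452220, plus strand), a transcription factor that the receptor induces and that drives amino acid breakdown in muscle, had 11.8, 11.4 and 10.9 CPM in IMQ with bergapten. Its level was 36.7, 59.3 and 23.7 CPM in IMQ and 25.7, 24.1 and 27.4 CPM in vaseline. The 3 bergapten libraries were nearly equal and below all others, and the IMQ and vaseline ranges overlapped. Klf15 had a log2 fold change of -1.81 (SE 0.28) for IMQ with bergapten over IMQ, -1.18 (SE 0.28) for IMQ with bergapten over vaseline and 0.63 (SE 0.27) for IMQ over vaseline. Klf15 and Zbtb16 had the highest Pearson r of any pair of the 10 genes, 0.982 over the 9 libraries.

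Tsc22d3 (ENSMUSG00000031431, chrX:139440277-139501408, minus strand) encodes the anti-inflammatory glucocorticoid-induced leucine zipper GILZ. It had 192.5, 215.6 and 218.6 CPM in IMQ with bergapten, 321.5, 454 and 197 CPM in IMQ and 387, 167 and 183 CPM in vaseline. All 3 groups overlapped, and vaseline replicate 1 stood well above the other 2 vaseline libraries. The log2 fold change was -0.63 (SE 0.38) for IMQ with bergapten over IMQ, 0.40 (SE 0.38) for IMQ over vaseline and -0.24 (SE 0.38) for IMQ with bergapten over vaseline. Without vaseline replicate 1 the last of these was 0.22.

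Of the FoxO factors, Foxo1 (ENSMUSG00000044167, chr3:52175757-52260642, plus strand) had 43.3, 44.5 and 41.0 CPM in IMQ with bergapten, 66.5, 86.8 and 49.2 CPM in IMQ and 64.7, 68.0 and 61.9 CPM in vaseline. The bergapten libraries were below both other groups, and the vaseline range lay inside the IMQ range. Foxo1 had a log2 fold change of -0.65 (SE 0.17) for IMQ with bergapten over IMQ, -0.59 (SE 0.17) for IMQ with bergapten over vaseline and 0.06 (SE 0.17) for IMQ over vaseline. Foxo3 (ENSMUSG00000048756, chr10:42057837-42152751, minus strand) had 95.3, 100.2 and 94.8 CPM in IMQ with bergapten, 125, 209.7 and 107 CPM in IMQ and 103, 89.9 and 91.6 CPM in vaseline. Here the IMQ libraries were above both other groups, which overlapped each other. The log2 fold change of Foxo3 was -0.60 (SE 0.21) for IMQ with bergapten over IMQ, 0.64 (SE 0.21) for IMQ over vaseline and 0.03 (SE 0.21) for IMQ with bergapten over vaseline. Without IMQ replicate 2, the IMQ over vaseline value was 0.30 for Foxo3 and -0.16 for Foxo1.

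The last pair are metabolic switches. Ddit4 (ENSMUSG00000020108, chr10:59785491-59787656, minus strand) encodes REDD1, a stress-induced inhibitor of mTORC1. It had 116, 145 and 176 CPM in IMQ with bergapten, 333, 416 and 164 CPM in IMQ and 163, 90.8 and 54.8 CPM in vaseline. The IMQ libraries only just cleared the highest vaseline library, and the bergapten libraries overlapped both other groups. Ddit4 had a log2 fold change of -1.06 (SE 0.45) for IMQ with bergapten over IMQ, 1.56 (SE 0.45) for IMQ over vaseline and 0.50 (SE 0.45) for IMQ with bergapten over vaseline.

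Pdk4 (ENSMUSG00000019577, chr6:5483351-5496309, minus strand) encodes pyruvate dehydrogenase kinase 4, which turns fuel use away from glucose. It had 41.9, 59.6 and 41.7 CPM in IMQ with bergapten, 105, 455 and 127 CPM in IMQ and 107, 127 and 136 CPM in vaseline. The bergapten libraries were below all others, and the IMQ mean of 229 ± 197 CPM (SD, n = 3) was set by replicate 2, since the other 2 IMQ libraries lay near the vaseline range. Pdk4 had a log2 fold change of -2.26 (SE 0.54) for IMQ with bergapten over IMQ, 0.89 (SE 0.52) for IMQ over vaseline and -1.37 (SE 0.53) for IMQ with bergapten over vaseline, none of them called. Without IMQ replicate 2 the IMQ over vaseline value was -0.09, and those for IMQ with bergapten, -1.27 over IMQ and -1.37 over vaseline, were called.

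Counted together, all 10 genes had a lower fitted level in IMQ with bergapten than in IMQ, with a median log2 fold change of -1.95 against -0.0045 over all genes tested. Of the 10, 5 were called lower (Trim63, Fbxo32, Fkbp5, Klf15 and Zbtb16), beside 2.65% of all genes, and 8 had groups that did not overlap, beside 13.2% of all genes. In IMQ over vaseline the fitted value was positive for all 10, with a median of 0.86 against 0.03 over all genes. There 5 were called higher (Trim63, Fbxo32, Fkbp5, Foxo3 and Ddit4), beside 23% of all genes, and the same number had groups that did not overlap, beside 26.9%. Against vaseline, IMQ with bergapten had 5 called lower (Trim63, Fbxo32, Foxo1, Klf15 and Zbtb16), beside 19.5%, and 7 did not overlap on the low side, beside 29.2%, with a median of -0.84. Because the genes were chosen with these contrasts known, nothing is read from these counts, and the contrasts share libraries, so they do not check each other.

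**Figure D2:**
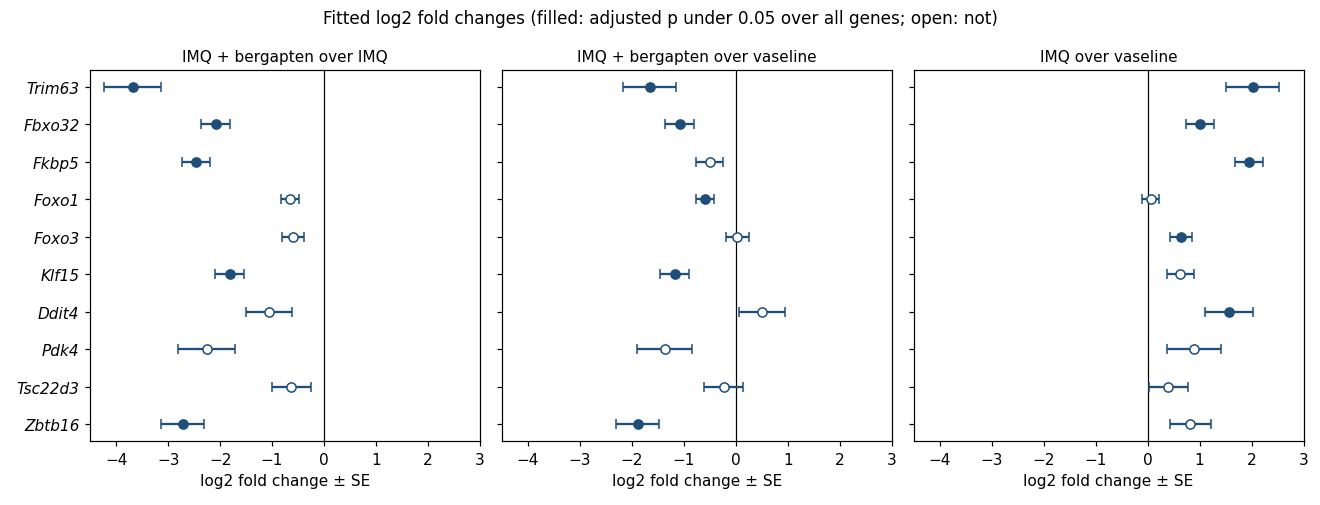
Fitted log2 fold change ± SE of each gene for IMQ plus bergapten over IMQ, IMQ plus bergapten over vaseline and IMQ over vaseline; filled points are called over all 18005 genes. The values for IMQ plus bergapten over IMQ run from -3.68 for Trim63 to -0.60 for Foxo3.

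Which of the 10 genes were called depended on single libraries, as did the number called over all genes. In IMQ with bergapten over IMQ that number was 869 of 18005 in the main fit and 1711 of 18462 without IMQ replicate 3. It was 139 of 18468, 332 of 18475 and 176 of 18499 without bergapten replicate 1, 2 and 3. Some fold changes moved as well, and without IMQ replicate 2 Pdk4 went from 0.89 to -0.09 in IMQ over vaseline. Of the 10 genes, 1, Fkbp5, was called in IMQ with bergapten over IMQ without bergapten replicate 1, with Trim63 at -3.45, Fbxo32 at -2.01, Klf15 at -1.84 and Zbtb16 at -2.60 on the log2 scale. Without bergapten replicate 3, 2 were called, Fkbp5 and Fbxo32, with Trim63 at -3.77, Klf15 at -1.78 and Zbtb16 at -2.83, and without bergapten replicate 2 the call of Zbtb16 (-2.74) was lost. Without IMQ replicate 3, 8 were called, with Foxo1 at -0.84, Foxo3 at -0.79 and Pdk4 at -2.55 added.

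Likewise, 2 of the 10 genes were called in IMQ over vaseline without vaseline replicate 1 (Trim63 at 1.83, Fbxo32 at 0.97 and Foxo3 at 0.67 lost) and 2 without vaseline replicate 2 (Fbxo32 at 0.92, Foxo3 at 0.57 and Ddit4 at 1.45 lost). Without vaseline replicate 3, 3 were called, with Foxo3 at 0.58 and Ddit4 at 1.23 lost. Over all genes, the main fit called 7783 of 18005 in this comparison. Without vaseline replicate 1, 2 and 3 the calls were 6470 of 18444, 6218 of 18466 and 6227 of 18481. The call of Ddit4 was also lost without IMQ replicate 1 (1.47) or 2 (1.27), and that of Foxo3 without any 1 bergapten library (0.61 each), while Klf15 (0.87) and Zbtb16 (1.16) were called without IMQ replicate 3. Against vaseline, the Trim63 call in IMQ with bergapten was lost without vaseline replicate 2 (-1.62) or 3 (-1.60) and without bergapten replicate 1 (-1.46), 2 (-1.88) or 3 (-1.77). Without bergapten replicate 3, 2 of the 10 genes, Klf15 and Zbtb16, were called there, with Fbxo32 at -1.0002 and Foxo1 at -0.59. Over all genes, that fit called 5550 of 18499, against 7270 of 18005 in the main fit. Calls were gained without IMQ replicate 1 for Pdk4, at -2.61 in IMQ with bergapten over IMQ and -1.40 over vaseline, and without IMQ replicate 3 for Fkbp5, at -0.54 over vaseline. Leaving out IMQ replicate 2 moved Trim63 to 1.23 and Fbxo32 to 0.63 in IMQ over vaseline, both still called. Without IMQ replicate 2 the median log2 fold change of the 10 genes was -1.34 for IMQ with bergapten over IMQ and 0.32 for IMQ over vaseline.

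Relative to the group mean, the spread within groups was widest in IMQ skin for 8 of the 10 genes, and in vaseline skin for Ddit4 and Tsc22d3. The coefficient of variation of CPM ran from 3.10% (Foxo3) to 31.7% (Trim63) in IMQ with bergapten, from 27.9% (Foxo1) to 85.9% (Pdk4) in IMQ and from 4.67% (Foxo1) to 53.5% (Ddit4) in vaseline. Set over the vaseline mean, IMQ replicate 2 was above 0 on the log2 scale for all 10 genes, with 2.91 for Trim63 and 1.88 for Pdk4. IMQ replicate 3 was below 0 for Klf15, Zbtb16, Tsc22d3 and Foxo1, and IMQ replicate 1 for Pdk4. Within the IMQ group, replicate 2 had the lowest summed level of neutrophil markers, 3975 CPM against 8312 and 9746 CPM in replicates 1 and 3. It was also lowest for stressed keratinocyte markers, with 9676 CPM against 15309 and 19582 CPM. These sums are not independent, since S100a8 and S100a9 are in both lists and made up most of the neutrophil sum. In IMQ replicates 1, 2 and 3, S100a8 had 2671, 1339 and 3128 CPM and S100a9 had 5134, 2402 and 6336 CPM. The keratinocyte marker Krt17 went the other way, with 798, 2943 and 1475 CPM. The part of these differences in the levels of the 10 genes was not tested.

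**Figure D3:**
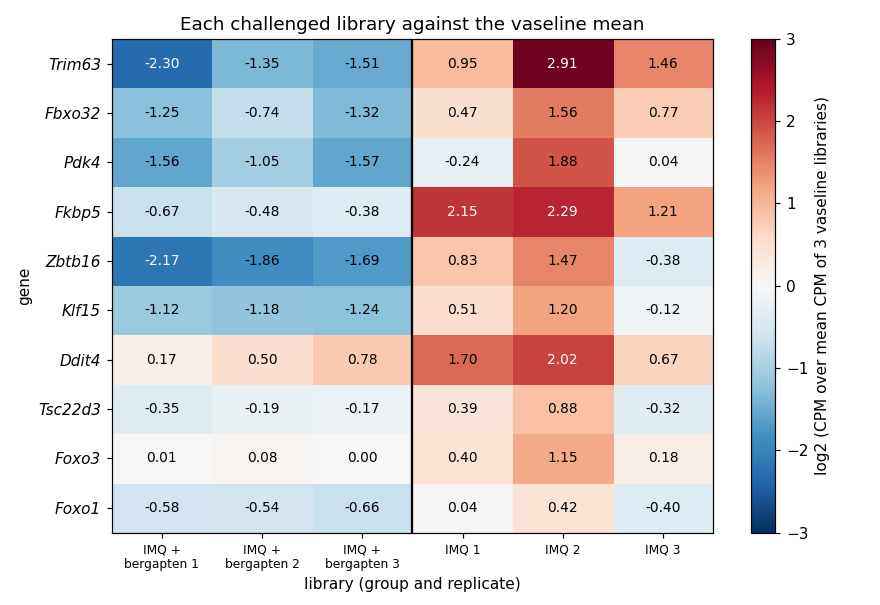
Log2 of each library's CPM over the mean CPM of the 3 vaseline libraries, genes in rows and the 3 IMQ plus bergapten and 3 IMQ libraries in columns, coloured from -3 (blue) to 3 (red). The IMQ columns differ among themselves, with replicate 2 at 2.91 and replicate 1 at 0.95 for Trim63, whereas the bergapten columns are similar for most genes.

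Levels were compared between genes per transcript length, in the authors' FPKM. In IMQ with bergapten, Ddit4 was highest at 85.7 ± 17.0 FPKM, then Tsc22d3 at 75.0 ± 3.99 FPKM, a pair whose ranges of mean ± SD overlapped, and the other 8 genes were at 15.97 FPKM (Fkbp5) or less, down to 2.82 ± 0.436 FPKM for Zbtb16 (SD, n = 3). In IMQ, Ddit4 led at 172 ± 67.6 FPKM, followed by Trim63 at 123 ± 85.9 FPKM and Tsc22d3 at 112 ± 39.8 FPKM, and the mean ± SD ranges of these 3 overlapped. In vaseline, Tsc22d3 led at 82.6 ± 42.0 FPKM, then Ddit4 at 56.6 ± 30.7 FPKM, a pair within each other's spread. The mean ± SD ranges of the next, Pdk4 at 34.1 ± 4.07 FPKM and Trim63 at 29.8 ± 5.92 FPKM, overlapped. Foxo1 was last at 7.21 ± 0.282 FPKM. By mean FPKM, Trim63 had rank 6 of the 10 in IMQ with bergapten, rank 2 in IMQ, where replicate 2 weighs on it, and rank 4 in vaseline. Foxo1 had rank 8 in IMQ with bergapten and was last in both other groups.

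Skeletal muscle RNA was present in every library; mouse back skin carries a thin striated muscle layer, the panniculus carnosus. The summed CPM of 24 muscle markers (of 26, with Myh7 and Tnnc2 under the filter) was 7354 to 7820 in IMQ with bergapten, 7637 to 10010 in IMQ and 25686 to 27782 in vaseline, and none of the 24 was at 0 in any library. In IMQ over vaseline, 21 of the 24 markers fell, with a median log2 fold change of -1.51, and in IMQ with bergapten over vaseline 22 fell, with a median of -1.70. CPM are shares of a library, so these falls are relative to the other RNA in it. In bulk tissue, fewer muscle fibres and less RNA per fibre also cannot be told apart. Between IMQ with bergapten and IMQ the median was -0.14. There 2 markers rose and 4 fell, and with any library left out 1 to 4 rose and 3 to 5 fell, the lowest number of rises without bergapten replicate 3 and the highest without IMQ replicate 3.

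Single muscle genes moved in opposite ways between these 2 groups. Casq1, which encodes the calcium store protein calsequestrin of fast fibres, had 64.5, 46.8 and 64.3 CPM in IMQ with bergapten, 12.1, 5.88 and 10.7 CPM in IMQ and 283, 308 and 283 CPM in vaseline. It rose by 2.61 on the log2 scale (SE 0.24, edgeR adjusted p = 0.00188) in IMQ with bergapten over IMQ. Myh4, the fast myosin heavy chain IIb, had 487, 404 and 351 CPM in IMQ with bergapten, 1037, 1288 and 1781 CPM in IMQ and 2490, 3316 and 2762 CPM in vaseline. It fell by 1.73 (SE 0.21, edgeR adjusted p = 0.00492) in IMQ with bergapten over IMQ.

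Set against the muscle markers, the atrophy ligases were higher in IMQ than in vaseline skin, as were the means of all 10 genes. The muscle sum itself was lower in IMQ skin, and a lower sum raises every such ratio. Trim63 had 2.42 ± 0.792 CPM for every 1000 CPM of muscle markers in IMQ with bergapten, 25.2 ± 16.1 in IMQ and 2.16 ± 0.370 in vaseline (SD, n = 3). Fbxo32 had 6.53 ± 1.44 in IMQ with bergapten, 23.1 ± 6.94 in IMQ and 3.92 ± 0.334 in vaseline. On this scale the bergapten and vaseline libraries overlapped for Trim63, whereas those of Fbxo32 did not, with bergapten above. Pdk4 had 6.25 ± 1.28 in IMQ with bergapten, 24.2 ± 18.5 in IMQ and 4.58 ± 0.388 in vaseline, and Zbtb16 had 1.84 ± 0.358, 10.2 ± 5.34 and 1.93 ± 0.113 in the same order. Foxo1, whose log2 fold change in CPM was 0.06 for IMQ over vaseline, had ratios of 5.63 ± 0.120, 7.52 ± 2.03 and 2.42 ± 0.162 in that order. Which cells of the skin held each transcript was not measured, and Fkbp5, Ddit4, Tsc22d3 and the FoxO genes are expressed in many cell types.

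**Figure D4:**
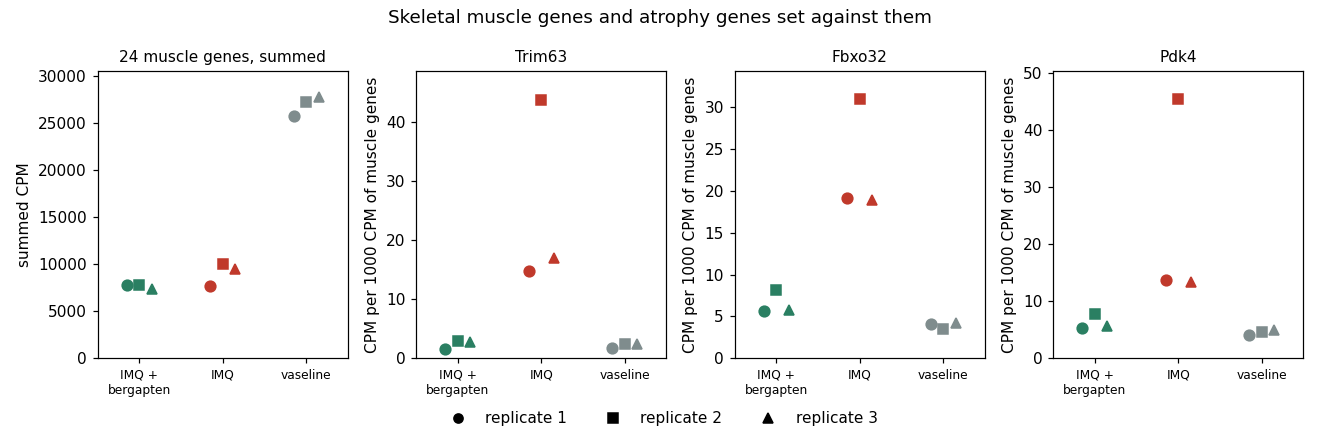
Summed CPM of 24 skeletal muscle markers in each library (first panel, linear axis from 0), and Trim63, Fbxo32 and Pdk4 in CPM for every 1000 CPM of those markers, with IMQ plus bergapten at the left, IMQ in the middle and vaseline at the right. The muscle sum is lower in both IMQ groups than in vaseline, and each ratio is highest in the 3 IMQ libraries.

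A list of 30 other glucocorticoid targets, 28 of them tested, was set beside the 10 genes. Over all genes tested, 4.83% were called in IMQ with bergapten over IMQ (2.18% higher and 2.65% lower), 43.2% in IMQ over vaseline (23% higher and 20.2% lower) and 40.4% in IMQ with bergapten over vaseline (20.9% higher and 19.5% lower), and the counts in these lists stand beside those shares. Of the 28, 8 fell in IMQ with bergapten over IMQ and the other 20 did not pass the test, with a median log2 fold change of -0.81. The 8 were Angptl4, Cebpb, Cebpd, Hif3a, Mertk, Mt1, Slc10a6 and Sult1a1. Their number was 2 without bergapten replicate 1, 2 or 3, and 15 without IMQ replicate 3. Mt1, the metal-binding metallothionein 1, had 107, 179.8 and 163 CPM in IMQ with bergapten, 424, 416 and 360.4 CPM in IMQ and 100.2, 96.7 and 110.3 CPM in vaseline. It fell by 1.42 (SE 0.17, edgeR adjusted p = 0.00457) in IMQ with bergapten over IMQ, and its IMQ libraries lay well above the other 6.

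Hif3a, a hypoxia-inducible factor subunit that glucocorticoids induce, had 2.75, 3.73 and 2.19 CPM in IMQ with bergapten, 18.7, 15.4 and 8.94 CPM in IMQ and 4.002, 2.68 and 3.80 CPM in vaseline. It fell by 2.31 (SE 0.31, edgeR adjusted p = 0.00605) in IMQ with bergapten over IMQ and rose by 2.03 (SE 0.31, adjusted p = 0.0005) in IMQ over vaseline. In IMQ over vaseline 11 of the 28 targets rose and 2 fell, with a median of 0.54, which was 0.06 without IMQ replicate 2. Several textbook targets did not pass in either comparison. Per1, Sgk1 and Dusp1, named after their values were seen, had log2 fold changes of -0.41, -0.09 and 0.16 in IMQ with bergapten over IMQ and -0.21, 0.35 and -1.13 in IMQ over vaseline.

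Of 13 tested genes (19 listed) of the glucocorticoid receptor, its chaperones and steroid metabolism, 3 rose in IMQ over vaseline, the chaperones Hsp90ab1, Ptges3 and Stip1, and 2 fell. The number that rose was 5 without IMQ replicate 2, IMQ replicate 3 or vaseline replicate 1. Those that fell were the receptors themselves. Nr3c1, the glucocorticoid receptor gene, had 174, 161 and 140.2 CPM in IMQ with bergapten, 115, 125 and 119 CPM in IMQ and 244, 245 and 258 CPM in vaseline. The 3 groups did not overlap, with IMQ lowest and vaseline highest. Nr3c1 fell by 1.05 (SE 0.09, edgeR adjusted p = 1.59e-05) in IMQ over vaseline and by 0.65 (SE 0.09, adjusted p = 0.000342) in IMQ with bergapten over vaseline. Its log2 fold change for IMQ with bergapten over IMQ was 0.40 (SE 0.09, edgeR adjusted p = 0.0365), a call lost in 8 of 14 alternatives, with adjusted p between 0.00271 and 0.137. These 8 were the fits without vaseline replicate 1, 2 or 3, IMQ replicate 1, or bergapten replicate 1 or 2, the fit of the 2 groups alone and that with the replicate block. Nr3c2, the mineralocorticoid receptor gene, fell by 1.66 (SE 0.20, adjusted p = 0.000116) in IMQ over vaseline.

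**Figure D5:**
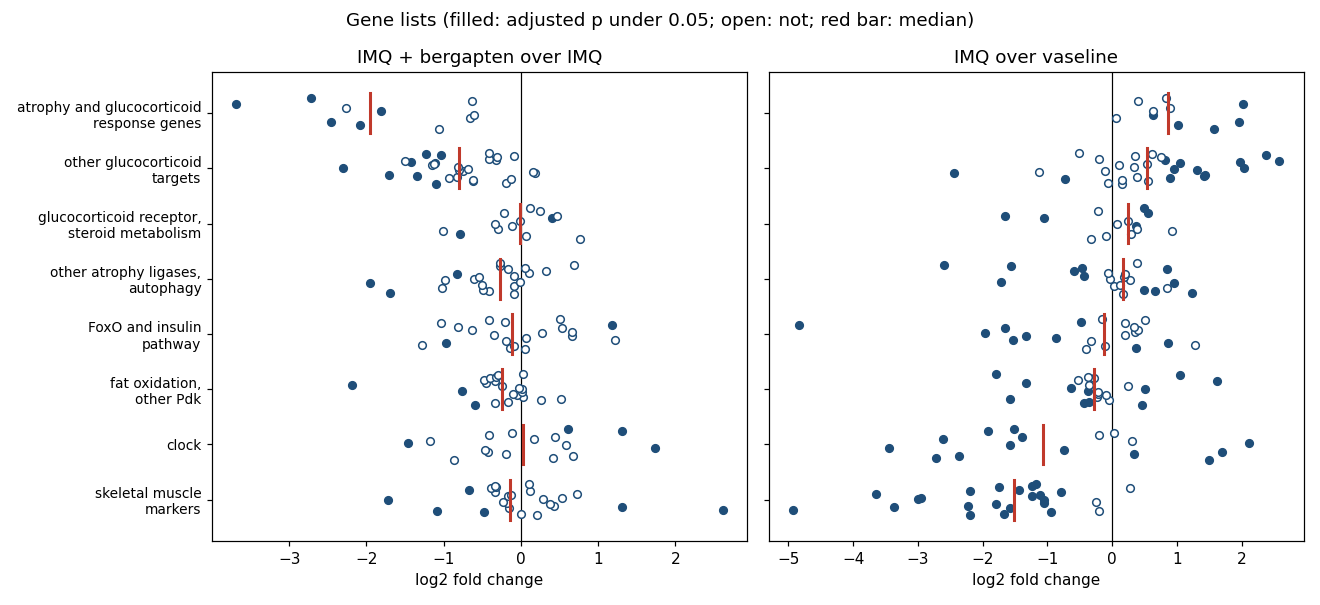
Fitted log2 fold changes of the genes in 8 lists for IMQ plus bergapten over IMQ (left) and IMQ over vaseline (right); filled points have an adjusted p under 0.05, and red bars mark the median. The medians of the 10 genes and of the other glucocorticoid targets are -1.95 and -0.81 at the left, while those of the other 6 lists plotted here lie between -0.27 and 0.03. The denervation and stress lists are not plotted.

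The other ubiquitin ligases and autophagy genes of muscle atrophy were a mixed group. Of 21, 5 rose in IMQ over vaseline (Bnip3, Bnip3l, Cblb, Fbxo31 and Traf6) and 6 fell, with a median log2 fold change of 0.16. Trim54 and Trim55, the MuRF3 and MuRF2 relatives of Trim63, were among those that fell, by 1.57 (SE 0.14, edgeR adjusted p = 1.97e-05) and by 2.59 (SE 0.30, adjusted p = 0.000102). Bnip3, Fbxo31 and Sqstm1, 3 in all, fell in IMQ with bergapten over IMQ, with a median of -0.27. That number was 2 without bergapten replicate 1 or 3 and 8 without IMQ replicate 3.

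Fbxo31, a substrate adaptor of a ubiquitin ligase, had 37.3, 36.4 and 36.9 CPM in IMQ with bergapten, 140.3, 192 and 94.1 CPM in IMQ and 70.8, 67.5 and 81.7 CPM in vaseline. Like Trim63 and Fbxo32, its 3 groups did not overlap and ran in the same order. Fbxo31 fell by 1.95 (SE 0.22, edgeR adjusted p = 0.00457) in IMQ with bergapten over IMQ. Bnip3, a mitophagy receptor, had 20.6, 29.3 and 27.2 CPM in IMQ with bergapten, 71.8, 114 and 63.5 CPM in IMQ and 37.0, 32.0 and 37.0 CPM in vaseline, and fell by 1.69 (SE 0.22, adjusted p = 0.00667) in IMQ with bergapten over IMQ.

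Of 20 tested genes (21 listed) of the FoxO and insulin pathway, 2 rose in IMQ over vaseline (Akt1 and Eif4ebp1) and 7 fell, with a median log2 fold change of -0.13. Without IMQ replicate 3, 4 rose in IMQ over vaseline. Mstn, which encodes the muscle growth inhibitor myostatin, fell by 4.83 (SE 0.28, edgeR adjusted p = 3.85e-06). The median was -0.11 in IMQ with bergapten over IMQ, and Eif4ebp1, the translation repressor that mTORC1 controls, was the gene that fell; 2 fell without IMQ replicate 1 or 2 and 4 without IMQ replicate 3. It had 65.6, 76.2 and 81.3 CPM in IMQ with bergapten, 160.0, 153 and 122 CPM in IMQ and 79.1, 83.5 and 78.0 CPM in vaseline, and fell by 0.96 (SE 0.12, edgeR adjusted p = 0.00385). Mstn was called higher there (1.18, SE 0.27, adjusted p = 0.0438), but this call was lost in 10 of 14 alternatives, among them each fit without a library other than bergapten replicate 2, with adjusted p up to 0.146.

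Among 15 tested denervation and immature muscle genes (17 listed), 3 rose (Fgfbp1, Gadd45a and Runx1) and 4 fell (Hdac9, Myf6, Myh8 and Myod1) in IMQ over vaseline, with a median log2 fold change of -0.17. The median was -0.28 in IMQ with bergapten over IMQ, and the call of Fgfbp1, -0.78 (SE 0.15, edgeR adjusted p = 0.0318), was lost in 7 of 14 alternatives (adjusted p up to 0.104), including those without bergapten replicate 1, 2 or 3, IMQ replicate 1 or vaseline replicate 1.

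Of 21 genes of fat oxidation and the other pyruvate dehydrogenase kinases, 4 rose (Acadl, Pdk3, Ppard and Ucp2) and 7 fell in IMQ over vaseline, with a median log2 fold change of -0.28. Without vaseline replicate 3, 2 rose, and without vaseline replicate 2, 4 fell. Acadl, Pdk2 and Plin5 were the 3 that fell in IMQ with bergapten over IMQ, with a median of -0.24, a number that was at most 1 without bergapten replicate 1, 2 or 3. Of 16 stress and hypoxia genes listed for Ddit4, 6 rose and 2 fell (Ddit3 and Ddit4l) in IMQ over vaseline, with a median of 0.48. Bnip3 and Trib3 fell in IMQ with bergapten over IMQ, with a median of -0.34, and only Bnip3 did so without bergapten replicate 1 or 3.

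Clock genes were listed because glucocorticoids set peripheral clocks and because Klf15 and Tsc22d3 are known to cycle over the day. Of 16, 4 rose (Arntl, Clock, Cry1 and Nfil3) and 9 fell in IMQ over vaseline, with a median log2 fold change of -1.06. Nr1d1, the repressor REV-ERB alpha, fell by 2.61 (SE 0.15, edgeR adjusted p = 1.39e-06) and Cry1 rose by 1.70 (SE 0.15, adjusted p = 1.5e-05). Dbp, a clock output transcription factor, had 50.7, 31.1 and 38.0 CPM in IMQ with bergapten, 10.9, 9.33 and 15.5 CPM in IMQ and 130.3, 126 and 133 CPM in vaseline. It fell by 3.44 (SE 0.22, adjusted p = 4.67e-06) in IMQ over vaseline and rose by 1.74 (SE 0.21, adjusted p = 0.00492) in IMQ with bergapten over IMQ. In the second comparison 3 of the 16 rose (Dbp, Per3 and Tef), with a median of 0.03. Nfil3 had -1.46 (adjusted p = 0.0312) there, a call lost in 8 of 14 alternatives, those without any 1 vaseline or bergapten library among them, with adjusted p up to 0.121. The part of the hour of collection in the levels of the 10 genes was not tested.

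The genes most like each of the 10 over the 9 libraries, by Pearson r of log2 CPM, are given as a description, since the libraries share 3 groups and many genes follow the same contrast. Predicted names (Gm or Rik), genes without a symbol, assembled loci and the 10 genes themselves were left out of the search. Trim63 and Fbxo32 were both closest to Dnajb9 (r = 0.985 and 0.980), an endoplasmic reticulum chaperone gene, and Cyp1b1 (0.969 and 0.970) was near both. Klf15 was closest to Sqstm1 (0.990) and H6pd (0.983), and Sqstm1 was also near Zbtb16 (0.978), whose closest gene was Filip1 (0.987). Fkbp5 was closest to Eif4ebp1 (0.981), Pdk4 to Spop (0.989), Foxo1 to Nox4 (0.984), Foxo3 to Adipor1 (0.982) and Ddit4 to Atp6v0e (0.963). Tsc22d3 had no gene in this search above 0.921, that of Atg12. Within the 10 genes the lowest r was 0.323, between Foxo1 and Ddit4.

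Markers of other cell types differed between the groups as well. Summed fibroblast markers were 26635 to 34309 CPM in IMQ with bergapten, 9821 to 22653 CPM in IMQ and 109740 to 118574 CPM in vaseline. Summed neutrophil markers were 2832 to 6796 CPM in IMQ with bergapten, 3975 to 9746 CPM in IMQ and 137 to 169 CPM in vaseline. In both IMQ groups most of this sum was S100a8 and S100a9, which are also among the stressed keratinocyte markers. S100a9 had 1808 to 4448 CPM in IMQ with bergapten, 2402 to 6336 CPM in IMQ and 4.77 to 6.72 CPM in vaseline. S100a8 had 854 to 2088, 1339 to 3128 and 0.850 to 1.78 CPM in the same order. Stressed keratinocyte markers summed to 6874 to 13823 CPM in IMQ with bergapten, 9676 to 19582 CPM in IMQ and 511 to 545 CPM in vaseline, and basal keratinocyte markers to 9156 to 12214, 8398 to 11155 and 5515 to 6040 CPM. Adipocyte markers summed to 2170 to 2514 CPM in IMQ with bergapten, 1712 to 4753 CPM in IMQ and 4482 to 4593 CPM in vaseline. Macrophage markers summed to 3789 to 4485, 2962 to 4819 and 2527 to 2990 CPM, and endothelial markers to 634 to 714, 758 to 937 and 599 to 684 CPM, in the same order of groups. Among the markers in these sums, the neutrophil gene Ly6g was at 0 in all 3 vaseline libraries and the adipocyte gene Lep in at least 1 IMQ library, and every other marker had counts in all 9. The part of these cell types in the levels of the 10 genes was not tested.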

How the data were processed

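The submitters' processing notes name Trimmomatic, HISAT2, HTSeq 0.6.0 and GRCm39. For each of 9 libraries, 3 a group, the authors deposited raw read counts per gene and FPKM values. FPKM were used only to compare genes. Percent values (GC, Q20 and Q30) and a mean quality score are also deposited by the authors per library, and raw reads ran from 42017796 to 53491700. The strand setting of the counting is not given in the sources used here, so antisense overlaps cannot be told apart.

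Of 56861 rows, 2 name no gene and were left out. Genes were filtered with filterByExpr (minimum count 10, minimum total 15), scaled by TMM and fitted with edgeR 4.0.16 (R 4.3.3, robust quasi-likelihood F test, group means, all 9 libraries), with Benjamini-Hochberg adjustment over 18005 genes. SE is the size of the log2 fold change divided by the square root of F. The analysis was tested on simulated data, in which fewer genes were changed than were called in these data. The simulation gave all groups the same spread per gene, so its rates do not cover groups of unequal spread. There 8.33%, 5% and 7.63% of calls were false for IMQ over vaseline, IMQ with bergapten over IMQ and IMQ with bergapten over vaseline. In the same order, 18%, 10.2% and 10.2% of genes changed 1.5-fold were called. For genes changed 2-fold the shares were 54.2%, 59.6% and 56%. Correlations used log2 CPM with a prior count of 2.

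The genes and lists were chosen with earlier results of these data known. From each other list, up to 3 genes with the smallest p per comparison were named. Where 5 or fewer of a list were called, and for the 8 glucocorticoid targets, the called genes were named after their values were seen. Alternatives were RLE size factors, DESeq2 1.42.0, no filter, the 2 compared groups alone, a replicate block and leaving out each library. Promoters are RefSeq, GRCm38.p6. Gene coordinates are from the deposited table.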

Additional observations from a re-analysis of the deposited data

How the results depend on the processing

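All of the fitted directions of the 10 genes held in the 14 alternatives except for some values that were never called. These were, for IMQ with bergapten over vaseline, Tsc22d3 without vaseline replicate 1 (0.22, in a range of -0.49 to 0.22 over the libraries left out) and Foxo3 without vaseline replicate 2 (-0.042), vaseline replicate 3 (-0.026), IMQ replicate 1 (-0.0016), IMQ replicate 3 (-0.00094) and bergapten replicate 2 (-0.028), in a range of -0.042 to 0.058. For IMQ over vaseline they were Foxo1 without vaseline replicate 3 (-0.0041) and IMQ replicate 2 (-0.16), in a range of -0.16 to 0.21, and Pdk4 without IMQ replicate 2 (-0.091), in a range of -0.091 to 1.21. The Pdk4 value was 0.89 in the main fit, so its direction rested on IMQ replicate 2. With no filter on low counts, 1 of the 10 was called in IMQ over vaseline and 3 in IMQ with bergapten over vaseline, against 5 in each. With the 2 compared groups alone, 3 were called in IMQ with bergapten over IMQ, against 5. Leaving out a library, the number called was 1 to 8 in IMQ with bergapten over IMQ, 2 to 7 in IMQ over vaseline and 2 to 6 in IMQ with bergapten over vaseline. Over all genes, IMQ with bergapten over IMQ had 869 calls, against 1866 with DESeq2, 130 with the 2 groups alone, 489 with the replicate block and 139 to 1711 with a library left out. IMQ over vaseline had 7783 calls, against 7356 with no filter and 6218 to 8212 with a library left out. For IMQ with bergapten over vaseline these numbers were 7270, 6747 and 5550 to 8511. The cause of these differences was not tested. Libraries with the same number correlated in their deviations from the group means at -0.0909 to 0.176 (1 of 9 pairs over 0.1). Those with other numbers did so at -0.175 to 0.115, and 6 of 18 cases correlated best with their own number. The numbers thus gave no clear sign of pairing, which 3 libraries a group cannot exclude. With the block the count of the 10 genes called in each comparison was 5, 5 and 6, in the order IMQ over vaseline, IMQ with bergapten over IMQ, IMQ with bergapten over vaseline. Total counts of 15855439 or more gave every one of the 10 genes at least 10.9 CPM in every library.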
